A study of Saccharomyces cerevisiae with 29 samples.

Results

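The genes nearest the 16 centromeres of budding yeast were described on L03, the reference sequence to which the libraries of this study belong. A protein-coding gene was taken when the midpoint of its annotated gene feature lay within 10 kb of the midpoint of the centromere of its chromosome, and 172 of 5859 genes with an annotated mRNA met that rule (2.94%). The study collected 29 libraries of alkali-cut genomic DNA from 14 strains, each of 7 DNA polymerase backgrounds with RNH201 and with rnh201-delta, to map ribonucleotides left in the genome. The backgrounds were wild type (WT), pol1-L868M, pol1-Y869A, pol2-M644G, pol2-M644L, pol3-L612G and pol3-L612M, with 13 libraries that kept RNH201, which encodes the catalytic subunit of RNase H2, and 16 that lacked it. Library values were not analysed here, so no strain is compared and every value below is a count, a length or a position on 1 annotated sequence, without replicates. Differences from the rest of the genome were not tested. Each share is given with its Clopper-Pearson (exact) interval at 95%, which treats genes as independent, although neighbours are not. Coordinates are those of L03 (ref_v2), counted from 1.

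A budding yeast centromere is a point centromere, a short stretch of sequence that binds a single centromeric nucleosome and assembles the kinetochore, to which a spindle microtubule attaches. It is made of the element CDEI, which binds the factor Cbf1, the AT-rich spacer CDEII, and the element CDEIII, which binds the CBF3 complex. Cohesin, the ring that holds sister chromatids together, is loaded most densely around centromeres, and yeast centromeres replicate early in S phase. Unlike the centromeres of most animals and plants, these have no large blocks of satellite repeats beside them, so ordinary genes lie next to the kinetochore.

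All 16 centromeres had the 3 elements annotated in the same order and on the strand of the centromere itself. CDEI was 10 bp and CDEIII 25 bp at each of them, and CDEII ran from 76 bp at CEN4 to 85 bp at CEN12, so that whole centromeres spanned 111 bp to 120 bp. By this order, 10 centromeres read on the plus strand and 6 (CEN7, CEN8, CEN10, CEN11, CEN12 and CEN15) on the minus strand. The centromere lay at 14.0% of the chromosome length on chromosome XII and at 80.8% on chromosome IX, the extremes of the 16.

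Genes were packed up to the centromere at about the density of the genome. The windows of 10 kb on each side, 320.0 kb in all, held 5.37 genes per 10 kb, against 4.89 for the region from 10 to 50 kb and 4.86 for the whole annotation. Protein-coding gene features covered 72.9% of the window bases, against 71.4% from 10 to 50 kb and 72.5% of the genome. The number of genes per window ran from 8 at CEN1 to 13 at CEN3, with a median of 11. The count by side was 89 genes to the left of the centromere, toward the chromosome's first base, and 83 to the right.

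**Figure D1:**
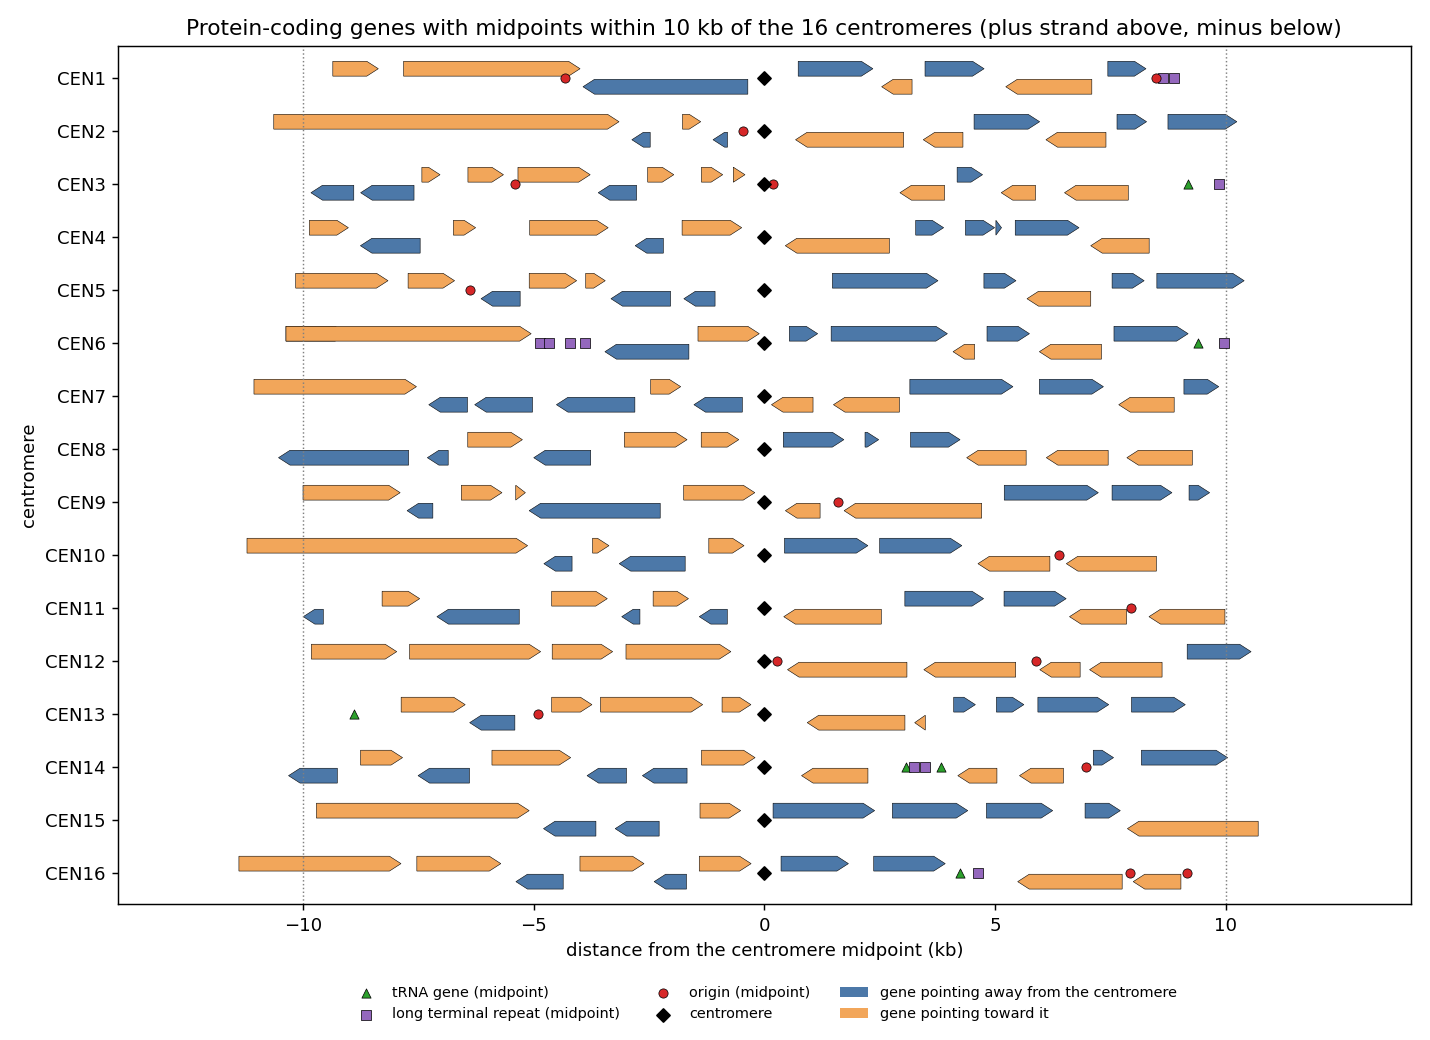
Gene features with midpoints within 10 kb of each centromere, plotted by distance from the centromere midpoint in kb, with plus-strand genes above and minus-strand genes below each line. Blue genes point away from the centromere and orange genes toward it; symbols mark midpoints of origins, tRNA genes and long terminal repeats, and YFL002W-B beside CEN6 lies under the longer YFL002W-A. CEN12 has 1 blue gene among 9.

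The limit of 10 kb cut through ordinary gene order. The outermost genes inside it were SSL1, for a subunit of the transcription and repair factor TFIIH, at 9854 bp from CEN12, the co-chaperone gene SIS1 at 9780 bp from CEN14 and the Golgi SNARE gene SFT1 at 9772 bp from CEN11. Just outside lay MRS11, for a protein of mitochondrial import, at 10116 bp from CEN8, SOK1 at 10129 bp from CEN4 and HAL1 at 10214 bp from CEN16.

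The gene nearest to a centromere was DEG1, a tRNA pseudouridine synthase gene on chromosome VI, whose 3′ end lay 50 bp from CEN6. AML1, annotated as similar to methyltransferases, ended 94 bp from CEN7, and RRP6, for an exonuclease of the nuclear exosome, started 129 bp from CEN15. Over the 32 flanks the median gap from the centromere edge to the nearest gene was 407.5 bp (interval of the median by order statistics 351 to 617 bp). Of these gaps, 22 were under 500 bp and 3 were 1 kb or more. The longest were 2878 bp between CEN3 and CDC10, a septin gene, 1415 bp between CEN5 and MNN1, a Golgi mannosyltransferase gene, and 1008 bp between IRC22 and CEN5.

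The whole stretch between genes that holds the centromere had a median of 984 bp, from 630 bp at CEN7 to 3355 bp at CEN3. The other 139 gaps between neighbouring genes in the windows had a median of 346 bp, and all 5799 gaps of the genome 369 bp. All 16 centromere gaps were longer than that genome median. Each of them includes the centromere's own 111 to 120 bp. The 16 gaps were also picked for holding a given site, which by itself favours long gaps, and the difference was not tested.

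More flanking genes pointed toward the centromere than away from it, 20 against 12. The flanking pair was convergent, with both 3′ ends facing the centromere, at 6 centromeres (37.5%, interval 15.2% to 64.6%), tandem at 8 (24.7% to 75.3%) and divergent at 2 (12.5%, 1.55% to 38.3%). Over all 5799 neighbouring pairs of the genome, 26.0% were convergent, 47.9% tandem and 26.1% divergent, and each of these shares lay inside the interval for centromeres. The convergent centromeres were CEN3, CEN4, CEN9, CEN12, CEN13 and CEN14, and the divergent ones were CEN1 and CEN5. Flanking genes that ended nearest the centromere had a median gap of 397.5 bp (n = 20), and those that started nearest it 449.5 bp (n = 12).

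**Figure D2:**
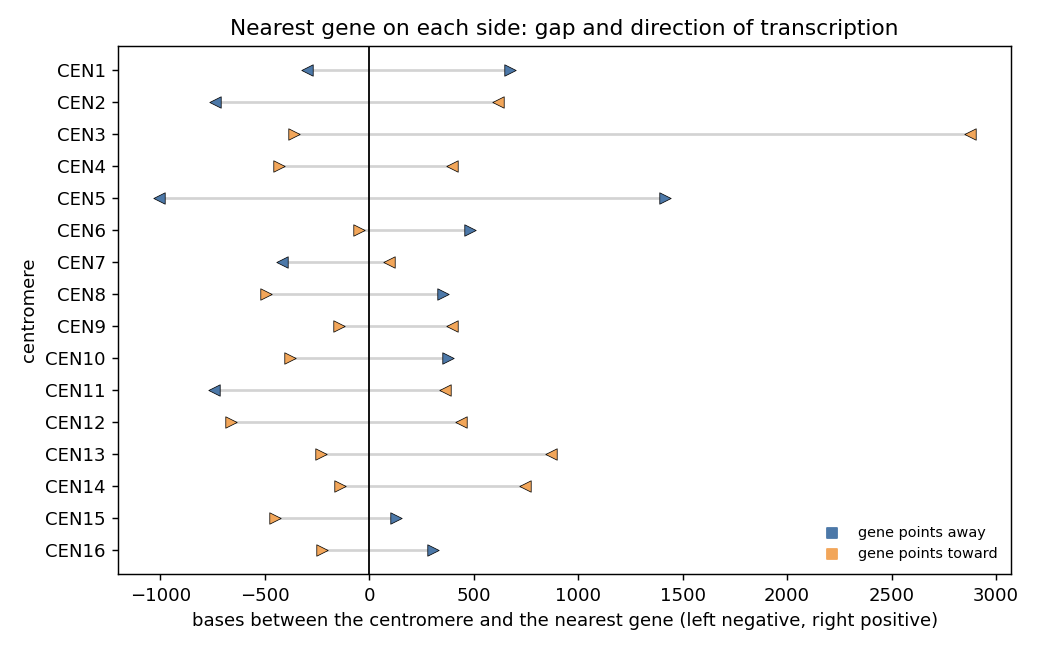
Bases between each centromere (black line at 0) and the nearest gene on its left (negative) and right (positive), with arrows giving the strand, blue for genes that point away and orange for genes that point toward it. Gaps ran from 50 bp at CEN6 to 2878 bp at CEN3.

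On chromosome I, CEN1 (151177 to 151294) lay between TFC3, for the largest subunit of the RNA polymerase III factor TFIIIC, 298 bp away, and NUP60, a nuclear pore gene, 674 bp away. Its 8 genes, the fewest of any window, were EFB1 (translation elongation), VPS8 (vacuolar sorting), TFC3, NUP60, ERP1, SWD1 (a subunit of the histone methyltransferase complex COMPASS), RFA1 and SEN34 (tRNA splicing). On chromosome II, CEN2 (238188 to 238304) had the small gene ECM15, of unknown function, 739 bp to its left and NTH2, a putative trehalase gene, 617 bp to its right. The histone genes HTB2 and HTA2 followed ECM15, with HTB2 1319 bp from the centromere by gap.

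CEN3 (112730 to 112846) stood apart in gene content. It had 13 genes, the most of any window, yet the lowest share of coding bases, 52.9%, and the shortest median gene, 771 bp. The genes were unevenly placed, with 9 to the left and 4 to the right. Those to the left were ILV6 (branched-chain amino acid synthesis), STP22 (ESCRT-I), VMA9 (vacuolar ATPase), LDB16, PGS1 (phospholipid synthesis), YCL002C, RER1 (retrieval to the endoplasmic reticulum), YCL001W-A and YCL001W-B. To the right lay CDC10, MRPL32 (mitochondrial ribosome), YCP4 and CIT2, a citrate synthase gene. Genes without a name beyond the locus tag were 20 of the 172 in the windows, against 1132 of all 5859 genes. CEN3 had 3 of these 20, as did CEN6 and CEN13.

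At CEN4 (449649 to 449759), RMD1, a gene of sporulation, lay 434 bp to the left and NTH1, for neutral trehalase, 398 bp to the right. MCD1, which encodes the cleavable subunit of cohesin, was 3327 bp from this centromere by gap. CEN5 (150889 to 151006) had the divergent pair IRC22 and MNN1 around a gap of 2541 bp. CEN6 (148512 to 148629) lay between DEG1 and LOC1, a gene of mRNA localization 482 bp away, and its left side held the Ty2 genes YFL002W-A and YFL002W-B, which overlap by 1317 bp. These were the 2 retrotransposon genes of the windows, of 89 in the file.

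CEN7 (496909 to 497027) had ERG26, a gene of ergosterol synthesis, at 417 bp and AML1 at 94 bp, in the shortest of the centromere gaps. CEN8 (105586 to 105703) lay between RPL14B, a gene of the large ribosomal subunit, at 494 bp and OSH7, of the oxysterol-binding family, at 351 bp. At CEN9 (354822 to 354938) the uncharacterised YIL001W was 147 bp away and SGN1, for an RNA-binding protein, 397 bp away. CEN10 (435960 to 436078) was flanked by PRE3, for a catalytic subunit of the proteasome, at 380 bp and AVT1, for a vacuolar amino acid transporter, at 376 bp.

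CEN11 (439783 to 439900) lay between MET14, for adenylylsulfate kinase of sulfate assimilation, at 743 bp and VPS1, for a dynamin-like GTPase, at 361 bp. CEN12 (150748 to 150867) had DNM1, for the dynamin of mitochondrial fission, at 664 bp and YLR001C at 441 bp, with the highest coding share of the windows, 80.7%, and the longest median gene, 1851 bp. Each of its genes but SSL1 was transcribed toward the centromere, 8 of 9. CEN13 (268025 to 268143) was flanked by YPT7, for a Rab GTPase of vacuole fusion, at 230 bp and by CDC5, for the polo-like kinase of mitosis, whose midpoint was 1987 bp from the centromere.

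The right flank of CEN14 (628714 to 628831) held CIT1, for the mitochondrial citrate synthase, at 746 bp, and the left flank DOM34, of no-go mRNA decay, at 141 bp. CEN15 (324626 to 324744) lay between PHO80, for a cyclin of phosphate control, at 453 bp and RRP6. CEN16 (555950 to 556066) lay between HAT1, for a histone acetyltransferase, at 227 bp and CIT3, for a citrate and methylcitrate synthase, at 303 bp. The centromere gaps of CEN15 and CEN16 were 701 bp and 647 bp.

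**Figure D3:**
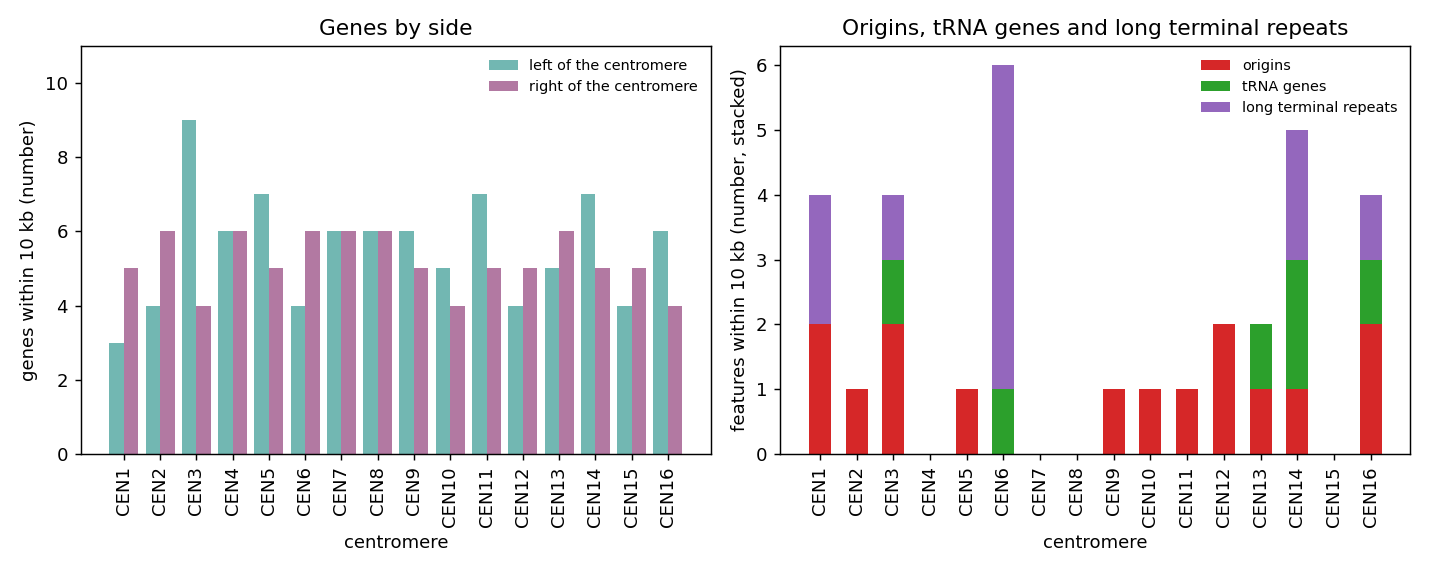
Number of protein-coding genes to the left and right of each centromere (left panel) and stacked numbers of origins, tRNA genes and long terminal repeats (right panel), all within 10 kb. CEN3 has 9 genes on its left and 4 on its right, CEN6 has 5 long terminal repeats, and CEN4, CEN7, CEN8 and CEN15 have none of the 3 other kinds of feature.

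The median gene length near centromeres was close to that of the genome, while the upper quartile was lower. The median gene feature was 1237 bp (interval by order statistics 1035 to 1329 bp), with quartiles of 766.5 and 1660.5 bp, against a median of 1230 bp and quartiles of 741 and 1894.5 bp for all genes. The longest were UTP20, of the small-subunit processome, with 7482 bp at CEN2, CYR1, for adenylate cyclase, with 6081 bp at CEN10, and the Ty2 gene YFL002W-A with 5314 bp. The shortest were YDR003W-A with 123 bp, YIL002W-A with 210 bp and YMR001C-A with 231 bp, all annotated as putative proteins of unknown function. Genes of 4 kb and over made up 2.33% of the windows' genes (4 genes) and 4.06% of all genes, and genes under 500 bp 11.6% and 12.9%. The coding length matched the stated protein length for each of the 172 genes except YCL002C, where it differed by 1 bp.

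Genes pointed away from the centromere in 81 of 172 cases (47.1%, interval 39.5% to 54.8%). Relative to the centromere of their own chromosome, 50.1% of all genes did so, a share inside that interval. To the left of the centromere 36 of 89 genes pointed away (40.4%, 30.2% to 51.4%) and to the right 45 of 83 (54.2%, 42.9% to 65.2%), so the intervals of the sides overlapped. The plus strand held 98 genes (57.0%, 49.2% to 64.5%), against 50.5% of all genes. On the strand of the centromere itself, as given by the order of its elements, lay 97 of 172 genes (56.4%, 48.6% to 63.9%). Per window the number pointing away ran from 1 of 9 at CEN12 to 7 of 12 at CEN5 and at CEN7, with 6 of 9 at CEN15.

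Direction varied with distance without a steady trend. Under 2.5 kb by midpoint, 16 of 43 genes pointed away (37.2%, 23.0% to 53.3%). This class held all flanking genes but CDC10 and MNN1, together with some genes that were not flanking. From 2.5 to 5 kb it was 26 of 43 (60.5%, 44.4% to 75.0%), and from 5 to 10 kb 39 of 86 (45.3%, 34.6% to 56.5%). Beyond the windows the shares were 48.7% from 10 to 20 kb and 51.3% from 20 to 50 kb. The genome's 50.1% lay inside each of the 3 intervals. The coding share was 64.4% of bases under 2.5 kb, 73.1% from 2.5 to 5 kb and 77.0% from 5 to 10 kb. These distance classes were chosen after the values had been seen.

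**Figure D4:**
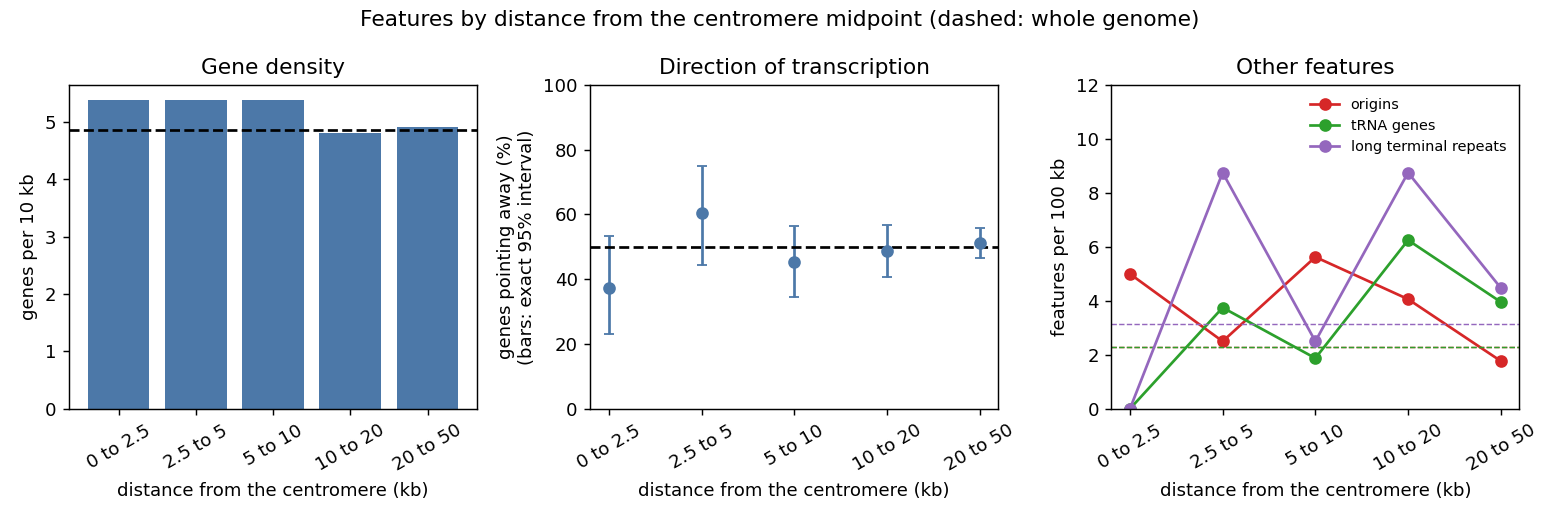
Genes per 10 kb (left), percent of genes pointing away from the centromere with exact 95% intervals (middle), and other features per 100 kb (right) in 5 distance classes around all 16 centromeres, with dashed lines for the whole genome. No tRNA gene and no long terminal repeat lies under 2.5 kb, and tRNA genes reach 6.25 per 100 kb from 10 to 20 kb. The classes were chosen after the values had been seen, and differences from the genome were not tested.

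Introns, counted as a break of 10 bp or more in the coding sequence, were present in 18 of the 172 genes (10.5%, interval 6.32% to 16.0%). They were present in 3.51% of genes from 10 to 50 kb and in 270 of all 5859 genes (4.61%), a share below that interval. The carriers lay at 10 of the 16 centromeres, with the most, 5, at CEN11. The share within 10 kb was not recomputed without that window or with other window sizes. The longest introns were those of RPL14A and RPL14B, at 398 bp each, of EFB1, at 366 bp, and of HRB1, for an mRNA export factor, at 342 bp, and the intron of EFB1 held a noncoding RNA of 102 bp. VMA9 and AML1 had 2 introns each. Of the 32 flanking genes, TFC3, AML1, RPL14B and PRE3 carried introns. The remaining carriers were YCL002C, MAF1, GIM4, PMI40, QCR10, BET1, SFT1, DID4, ECM9 and YKR005C.

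The annotation marked experimental evidence for the coding sequence of 152 of these genes (88.4%, 82.6% to 92.8%), against 80.7% of all genes. None of the 172 was called dubious. With genes within 25 kb of an end and retrotransposon genes left out, the genome share was 83.1%, which lay inside the interval, while the intron share stayed at 4.64%. That background was chosen after the values were seen.

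Genes for the kinetochore were not found beside the centromeres. None of 56 kinetochore and checkpoint genes lay in the windows, nor any of 14 genes of ribonucleotide removal and dNTP supply or 17 genes of glycolysis. Of 25 cohesin and condensin genes, MCD1 was present, 4233 bp from CEN4 by midpoint. Of 31 genes of the spindle pole body and microtubules, SFI1, for a protein of spindle pole body duplication, lay 6266 bp from CEN12. Since 2.94% of all genes lay in the windows, that share of the kinetochore list would be 1.64 genes, so a count of 0 is close to it.

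Replication and cell cycle lists each had 1 gene in the windows, where the genome share of 2.94% would give 0.675 polymerase, 0.881 licensing and 0.646 cell cycle genes. RFA1, for the large subunit of the single-strand binding protein RPA, lay 6163 bp from CEN1 and was the sole gene of 23 for replicative polymerases and their partners. ORC3, a subunit of the origin recognition complex, lay 8889 bp from CEN12, as the sole gene of 30 for licensing and the helicase. CDC5 was the sole gene of 22 cell cycle kinases, cyclins and phosphatases.

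At the genome share, other lists would have 0.294 histone, 1.12 nuclear pore, 0.939 proteasome, 0.910 RNA polymerase, 4.05 cytoplasmic ribosomal and 2.26 mitochondrial ribosomal genes. Of 10 histone genes, HTA2 (histone H2A) and HTB2 (histone H2B) lay 2672 and 1575 bp from CEN2 by midpoint. They are transcribed in opposite directions from a shared promoter region. Of 38 nuclear pore and transport genes, NUP60 and NIC96 were present, and of 32 proteasome genes PRE3 and RPN11. RPC34, a subunit of RNA polymerase III, lay 6004 bp from CEN14, as the sole gene of 31 for RNA polymerase subunits. Cytoplasmic ribosomal protein genes were represented by RPL14A and RPL14B, 2 of 138 (1.45%), and mitochondrial ones by MRPL32, MRP4, MRP17 and MRP7, 4 of 77 (5.19%).

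By a word search in the annotation text, mitochondria were mentioned for 31 genes (18.0%, 12.6% to 24.6%), against 755 of all genes (12.9%). They were spread over 13 windows and included CIT1, CIT3, DNM1, COX16, QCR10 (a subunit of respiratory complex III) and ATP16 (a subunit of the ATP synthase). The search counts any mention, as for THI73, a permease gene whose text speaks of mitochondrial dysfunction. Genes of unknown function were 23 (13.4%, 8.67% to 19.4%), against 21.3% of all genes and 20.6% of those away from chromosome ends, both above that interval. Vesicles, the Golgi or the endoplasmic reticulum were mentioned for 16 genes (9.30%, 5.41% to 14.7%), against 6.23%, and ubiquitin or the proteasome for 11 (6.40%, 3.24% to 11.2%), against 3.84%. The DNA repair or replication class had 7 genes (4.07%, 1.65% to 8.21%), against 2.34%, and the cell cycle class 6 (3.49%, 1.29% to 7.44%), against 5.56%. Apart from unknown function, the genome shares of these 6 classes lay inside the intervals, mitochondria included.

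The other 9 word classes each had a genome share inside their interval. Ribosomal terms were found for 14 genes (8.14%, against 7.75% of all genes), which apart from the ribosomal proteins were mostly factors of ribosome assembly such as NOP16, SPB4, NOC3, RLP7 and UTP23. Regulation of transcription was mentioned for 14 genes (8.14%, against 9.66%), including MED2, of the Mediator complex, and SIN3, of a histone deacetylase complex. Enzyme terms (dehydrogenase, synthase or reductase) were found for 13 genes (7.56%, against 5.91%), among them ERG26, ILV6, UGA2 and AUR1. Meiosis or sporulation was mentioned for 10 genes (5.81%, against 3.79%), transporters, permeases or transport for 9 (5.23%, against 4.78%) and the letters of tRNA were found for 8 (4.65%, against 3.06%). Kinases were mentioned for 6 (3.49%, against 5.10%), phosphatases for 4 (2.33%, against 2.63%) and the cell wall for 2 (1.16%, against 2.15%).

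The tRNA class held genes of several kinds. EFB1 and PTC1 were found through a mention of tRNA in texts on translation and on a phosphatase mutant. SPB4 and RLP7 matched across words that end in t before RNA, and without SPB4, which is lost when the spaces of the text are kept, the class had 7 genes (4.07%, against 2.68% of all genes). Of the rest, SEN34, of the tRNA splicing endonuclease, lay 7856 bp from CEN1 by midpoint. By the same measure, DEG1 lay 773 bp from CEN6 and TRM12, for a tRNA modification enzyme, 7175 bp from CEN13. The signalling genes in the windows included STE20, for a kinase of the pheromone pathway, 9117 bp from CEN8, and GPA1, for the G protein alpha subunit of the same pathway, in the same window. CYR1 lay 8169 bp from CEN10 and LST8, a partner of the TOR kinases, 8294 bp from CEN14. The phosphatase genes were PTC1 (type 2C, at CEN4), NEM1 (at CEN8) and INP51 (at CEN9), together with YPI1, for a regulator of type 1 phosphatase, at CEN6.

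Genes whose text mentions DNA repair, DNA replication or DNA damage were met at several centromeres. The word search, which does not separate repair from replication, found RFA1, HTA2 and MPH1, a DNA helicase gene at CEN9. It also found RTT109, NOC3, ORC3 and YLR003C, all 4 at CEN12, of which YLR003C was also in the class of unknown function. The terms searched (DNA repair, DNA replication and DNA damage) missed some genes of repair, among them RAD57, of homologous recombination, 6127 bp from CEN4, DNL4, for the DNA ligase of end joining, 9283 bp from CEN15, SSL1 and HAT1. CDH1, for an activator of the anaphase-promoting complex, lay 3655 bp from CEN7, where CUL3, a cullin gene, and RPN14, for a proteasome assembly factor, lay 4270 and 5649 bp away. Of the 11 genes with a mention of ubiquitin or the proteasome, these 3 were at CEN7.

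Genes of secretion and of protein glycosylation lay at several centromeres. BET1 and SFT1, for SNAREs of the early secretory route, were 7461 bp from CEN9 and 9772 bp from CEN11, and both carried introns. COG7, of the Golgi tether COG, was 6851 bp from CEN7, and SYS1, of Golgi membrane traffic, 4471 bp from CEN10. WBP1 and OST1, which encode subunits of the oligosaccharyltransferase, lay at CEN5 and CEN10, and ALG6, for an enzyme that builds the lipid-linked sugar they transfer, at CEN15.

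The file's text for 64 of the 172 genes named another gene, in 110 links. Of these 110 links, 6 led to another gene of the windows, each on another chromosome. For scale, 2.94% of all genes lay in the windows, and a difference from that share was not tested. A pair of genes that name each other counts once in each direction. The 6 links were that from RCR2 to RCR1, those between HSE1 and VPS27 and between RPL14A and RPL14B in both directions, and that from MVP1, of vacuolar sorting, to VPS1.

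Further themes were picked after the gene lists had been read and are given as descriptions only. For scale, 2.94% of all genes lay in the windows. The vacuole was mentioned for 14 genes (8.14%), against 3.70% of all genes, among them YPT7, PMC1 (a vacuolar calcium pump), AVT1 and VMA9. ESCRT complexes, which sort ubiquitinated membrane proteins into the vacuole, were named for STP22 (ESCRT-I, at CEN3), SNF8 (ESCRT-II, at CEN16) and DID4 (ESCRT-III, at CEN11), 3 of the 12 genes so annotated. VPS27, at CEN14, and HSE1, at CEN8, encode partners of a complex that acts before these. The general factors of RNA polymerase II were named for TAF4 (TFIID, CEN13), TFG2 (TFIIF, CEN7) and SSL1 (TFIIH, CEN12), 3 of the 30 genes so annotated. RNA polymerase III was named for RPC34, TFC3 and MAF1, a repressor of that polymerase, 3 of 22 genes. Histones were mentioned for 7 genes (4.07%, against 2.13% of all genes), which apart from HTA2 and HTB2 were the chromatin genes SWD1, SWC4, RTT109, SIN3 and HAT1. Splicing was mentioned for 2.91% of the windows' genes, against 2.08% of all genes, and mating or pheromone for 1.74%, against 1.19%. For peroxisomes the shares were 2.33% and 1.08%, and for glycosylation or mannose 4.65% and 2.41%.

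The term citrate synthase was found in the text of 5 genes, of which CIT1, CIT2 and CIT3 lay in the windows and LYS20 and LYS21, for homocitrate synthase, did not. CIT1 lay 1525 bp from CEN14, CIT2 7194 bp from CEN3 and CIT3 1092 bp from CEN16 by midpoint. CIT1 and CIT3 encode mitochondrial enzymes and CIT2 the peroxisomal one. The term dynamin was found in the text of 5 genes, of which VPS1 and DNM1 lay in the windows, as flanking genes of CEN11 and CEN12. Both terms were also picked after the gene lists had been read, and their counts were not tested against the 2.94% of all genes in the windows.

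Several pairs of paralogues lay beside different centromeres. Budding yeast descends from an ancestor whose genome was duplicated, which left many genes in related copies. The pairs below were named from such knowledge after the positions had been seen, so neither their number nor their shared sides and directions say anything about paralogues in general. Among the 172 genes were 6 pairs. NTH2 and NTH1 lay 617 and 398 bp to the right of CEN2 and CEN4 by gap, both on the minus strand, and RCR1 and RCR2, the first named for resistance to Congo red, lay 7961 and 4673 bp to the right of the same centromeres by midpoint, both on the plus strand. RPL14B and RPL14A lay 960 and 7874 bp to the left of CEN8 and CEN11 by midpoint, both on the plus strand. Each had 815 bp, 138 residues and 1 intron. OSH7 and OSH6, for lipid transfer proteins, lay 1067 and 5866 bp to the right of these same centromeres by midpoint. CIT2 and CIT1 lay to the right of CEN3 and CEN14.

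The pair ERP1 and ERP6, for proteins of the p24 family of early secretion, lay 2871 bp to the right of CEN1 and 2137 bp to the left of CEN7. CEN1 reads on the plus strand and CEN7 on the minus strand, so both genes lay on the CDEIII side of their centromere. In 4 further pairs the partner of a gene in the windows lay a little farther out. LAG1, of ceramide synthesis, was 4379 bp from CEN8 and LAC1 12264 bp from CEN11. HRB1 was 5048 bp from CEN14 and GBP2, also of mRNA export, 11726 bp from CEN3. YEA6 and YIA6, for mitochondrial NAD carriers, were 7215 bp from CEN5 and 11064 bp from CEN9. ATO2 and ADY2, for membrane transporters of the same family, were 4615 bp from CEN14 and 18255 bp from CEN3. The 10 pairs came from 5 pairs of centromeres, so they are not 10 separate cases. In all 10 pairs both genes lay on the same side of the centromere by the order of its elements. In 9 of 10 pairs both also had the same direction relative to it, the exception being GBP2 and HRB1.

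**Figure D5:**
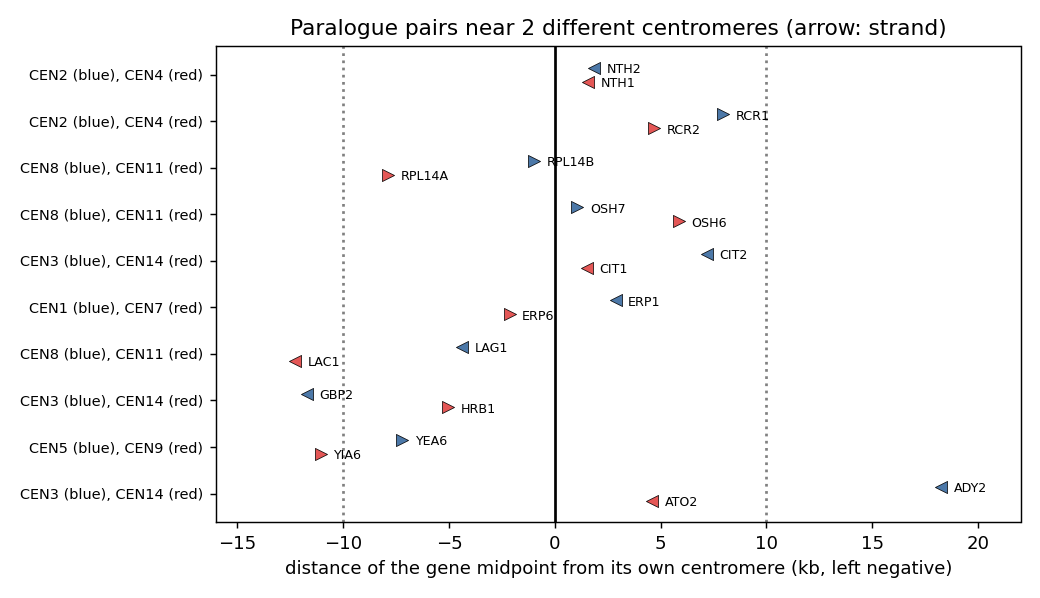
Midpoint of each gene of 10 paralogue pairs by its distance in kb from its own centromere, left negative, with blue and red for the first and second centromere named on the axis and arrows for the strand. Dotted lines mark 10 kb; ERP1 and ERP6 are the pair on opposite sides, where the centromeres have opposite strands.

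Origins of replication were denser in the windows than over the genome, whose density lay below the interval. The windows held 15 origins, or 4.69 per 100 kb (exact Poisson interval 2.62 to 7.73), against 2.27 over the genome. By distance the density was 5.00 under 2.5 kb, 2.50 from 2.5 to 5 kb, 5.63 from 5 to 10 kb, 4.06 from 10 to 20 kb and 1.77 from 20 to 50 kb. They lay in 11 windows, with 2 each at CEN1, CEN3, CEN12 and CEN16 and none at CEN4, CEN6, CEN7, CEN8 and CEN15. ARS308 (112666 to 113284 on chromosome III) contained the whole of CEN3, and ARS1208 (150867 to 151309 on chromosome XII) began on the last base of CEN12. By midpoint, ARS208 lay 464 bp from CEN2 and ARS920 1591 bp from CEN9. The origin farthest from a centromere among those nearest to each was ARS807, 27.8 kb from CEN8. The midpoint of 1 of the 15 origins, ARS108, fell inside a gene, VPS8.

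Transfer RNA genes, which RNA polymerase III transcribes, had a density within 10 kb close to that of the genome, which lay inside the interval. The density from 10 to 50 kb lay above that interval. The windows held 6, or 1.87 per 100 kb (exact Poisson interval 0.688 to 4.08), against 2.28 over the genome and 4.53 from 10 to 50 kb. They were SUF2 at CEN3, TF(GAA)F at CEN6, TS(AGA)M at CEN13, SUF10 and TN(GUU)N2 at CEN14 and TF(GAA)P1 at CEN16, and 5 of 6 lay to the right. The closest was SUF10, whose nearer end lay 2970 bp from CEN14 (631802 to 631873 on chromosome XIV). From 10 to 20 kb there were 20, or 6.25 per 100 kb. The nearest tRNA gene was at a median of 11.9 kb from the centromere, from 3.07 kb at CEN14 to 34.7 kb at CEN7.

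Long terminal repeats, the remains or ends of Ty retrotransposons, had a density in the windows close to that of the genome. The windows held 11, or 3.44 per 100 kb (exact Poisson interval 1.72 to 6.15), against 3.16 over the genome and 5.55 from 10 to 50 kb. CEN6 alone had 5 of the 11, and without that window the density was 2.00. Of the 5, 4 lay in a run from 143542 to 144824 on chromosome VI, beside the Ty2 genes. The first of this run, YFLWDELTA4 (143542 to 143873), lay within the annotated repeat region of 5959 bp around those genes. A tRNA gene lay within 1 kb of 5 of the 11. No tRNA gene and no long terminal repeat was annotated under 2.5 kb, and 10 windows had neither. The distance classes were chosen after the values had been seen. Whether this absence under 2.5 kb differs from the genome densities was not tested. Noncoding RNA genes in the windows other than that of the EFB1 intron were SNR43, of 209 bp, 6835 bp from CEN3, and SNR87, of 109 bp, 9103 bp from CEN11, both for small nucleolar RNAs.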

How the data were processed

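Only the annotation of L03 was used. Its start and end positions, counted from 1 (ref_v2), are as the authors deposited them. Per the file header they come from the S288C annotation R64-1-1, and the way they were lifted onto L03 is not stated there. Reads were not analysed here, and for them cutadapt (1.2.1) and Bowtie (0.12.8) are listed per the submitters' processing notes. The file holds no library values, so no depth, replicate or test enters.

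Gene features with an mRNA were placed by midpoint. A gap is the number of bases between a gene and the centromere feature. Genes inside another gene were skipped when neighbours were paired. Function was read from 15 word searches of the coding sequence's note and product, made as letters with all spaces removed since the file drops spaces where lines were joined, so a match can span words, and from 14 gene lists. Planned whole-word searches could not be made. The members, lists and searches were chosen with earlier results of these data known. All 172 locus tags were found in the RefSeq R64 table, where 9 have another symbol, AML1 being EFM5. Names here are those of the L03 file.

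Named genes were the nearest gene on each side of every centromere, the 3 longest and 3 shortest, list members, intron carriers, the 3 on each side of the limit and all genes at CEN1 and CEN3; others were chosen after their values were seen. Scripts were tested on simulated positions. Python 3.11.15, numpy 2.4.6, scipy 1.17.1, pandas 2.3.3 and matplotlib 3.10.9 were used. No sequence is shown, since no genome or sequence table was used here.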

Additional observations from a re-analysis of the deposited data

How the results depend on the processing

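Alternatives changed the window to 5 kb or 20 kb, the placement rule to any base in the window, and the gene set, and left out each window in turn. Not every result had each alternative. The shares of the windows' genes with introns or with experimental evidence had none. Flanking pairs and word classes were not recomputed without single windows. Of 256 alternative values, 251 moved by less than 1.5 times (counts and densities), the interval of the share or median, or the spread between windows (coding share). With windows of 20 kb the density of tRNA genes rose from 1.87 to 4.06 and that of long terminal repeats from 3.44 to 6.09 per 100 kb. Without the window of CEN6 the latter was 2.00. With only genes that carry experimental evidence, 64.5% of window bases were coding instead of 72.9%, since fewer genes were counted. Leaving out genes near chromosome ends and retrotransposon genes, an alternative chosen after seeing the data, moved the genome share with experimental evidence from 80.7% to 83.1%. Leaving out each window gave 5.30 to 5.47 genes per 10 kb, 46.0% to 49.1% of genes pointing away and 4.33 to 5.00 origins per 100 kb. Word searches with the spaces of the text kept, also chosen after seeing the data, took 1 gene (SPB4, from the tRNA class) out of the 15 classes. The planned search for CACGTG in promoters was not run, because no promoter sequence was used here. No paired analysis was possible because library values do not enter. The number of annotated features limits the precision.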
